A study of Homo sapiens with 7 samples.

Results

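The X, Y and Z triplets are sets of 3 probe set rows on the ExonHit Human Splice Array that share the same name up to a closing hyphen and then end in the letter X, Y or Z. All 181539 complete triplets were taken, out of a table of 2108940 rows, and 94 rows of 81 incomplete sets were left aside. Each name opens with a gene number and closes with a running number within that gene, and the last running number equalled the count of triplets in 99.8% of the 18994 gene numbers. A gene number held 7 triplets at the median and 148 at most. Of the complete triplets, 106009 (58.4%) had at least 1 row whose mean over the arrays lay above 2.95 on the log2 scale, the median of all row means, and 11267 had all 3 rows above it. The triplet just inside that level had a Z row mean of 2.95, and the one just outside, in PPP2R3A, had the same mean to this precision, so the level is a line through a continuous range. A current gene symbol could be used for 160748 triplets of 16125 genes, while 10.1% were not listed in the platform annotation and are unnamed here.

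Arrays of this type carry probes for exon bodies, for exon-exon junctions and for exon-intron boundaries, so that 1 gene is read at many places and a change in how its RNA is spliced can be separated from a change in how much RNA it makes. What the letters X, Y and Z probe, and whether the running number follows the direction of transcription, is not given in the sources used here, and neither is assumed below. Camptothecin (CPT) is a plant alkaloid that traps topoisomerase I on the DNA it has cut. Trapped complexes block RNA polymerase II, break DNA when replication forks meet them and activate p53. Splicing takes place largely while the RNA is being made, on intron-containing precursor RNA that normally has a short life.

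The study asked what poisoning of topoisomerase I does to splicing across the genome. HCT116, a human colon carcinoma line, received CPT at 10 µM for 15 and 20 h (CPT late, 2 arrays) or for 1, 2 and 4 h (CPT early, 3 arrays), or the solvent DMSO at 0.1% for 4 and 20 h (DMSO, 2 arrays). No time was repeated, and the labels do not say whether the arrays come from separate cultures, so the spread behind every p-value below is that of arrays from different times. Arrays of DMSO and CPT early correlated at 0.942 to 0.956 over all rows, the 2 CPT late arrays at 0.941 with each other and at 0.845 to 0.908 with the rest. Epithelial markers were above the level in 67.1% of their rows, leukocyte and endothelial markers in 32.1% and 29.1%, and fibroblast markers in 52.1%. Averaged over its genes, the level of leukocyte markers was 4.76 and 4.92 in CPT late and 4.01 and 4.19 in DMSO, that of endothelial markers 4.29 and 4.21 against 3.56 and 3.71, that of fibroblast markers 4.27 and 4.09 against 3.72 and 3.67, and that of epithelial markers 5.92 and 5.70 against 5.82 and 5.85. Both late arrays lay above both DMSO arrays in 4 of 5 leukocyte, 5 of 5 endothelial, 4 of 5 fibroblast and 2 of 8 epithelial marker genes, and in 53.8% of all genes with rows above the level. The value of a gene was the median of its rows with a mean above the level, CPT late included in that mean. The share of rows kept ran from 5.05% in DCN to 80.6% in KRT8. Where few rows are kept, rows that rise late can be favoured. The part of these genes in the results was not tested. All arrays were of the HCT116 line. Array values do not tell apart a change in RNA per cell from a change in the share of cells in a given state.

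For each triplet and array a score was computed as the mean of the Y and Z values minus the X value, all in log2 units. Row brightness depends on the probes, so the level of the score has no meaning of its own and only its differences between arrays are read. The letters nevertheless differed as groups. X rows were above 2.95 in 45.7% of cases, close to the 45.2% and 44.3% of the rows ending in C and D, whereas Y and Z rows were above it in 20.8% and 25.8%. In 52.8% of the triplets X had the highest mean of the 3 rows. Most Y and Z rows therefore lay below the median of the table.

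The median score over all complete triplets was -0.48 in DMSO at 4 h and -0.44 in DMSO at 20 h, then -0.46, -0.45 and -0.41 in CPT at 1, 2 and 4 h, and -0.22 and -0.18 in CPT at 15 and 20 h. The early arrays lay within or just beside the 2 DMSO arrays and both late arrays lay above all others. The median X value was 2.52 and 2.52 in CPT late and 2.74 and 2.70 in DMSO. The median Y value was 1.86 and 1.95 in CPT late and 1.81 and 1.76 in DMSO. The median Z value was 2.0 and 2.1 in CPT late and 1.93 and 1.90 in DMSO, so X was lower and Y and Z were higher in the late arrays.

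**Figure D1:**
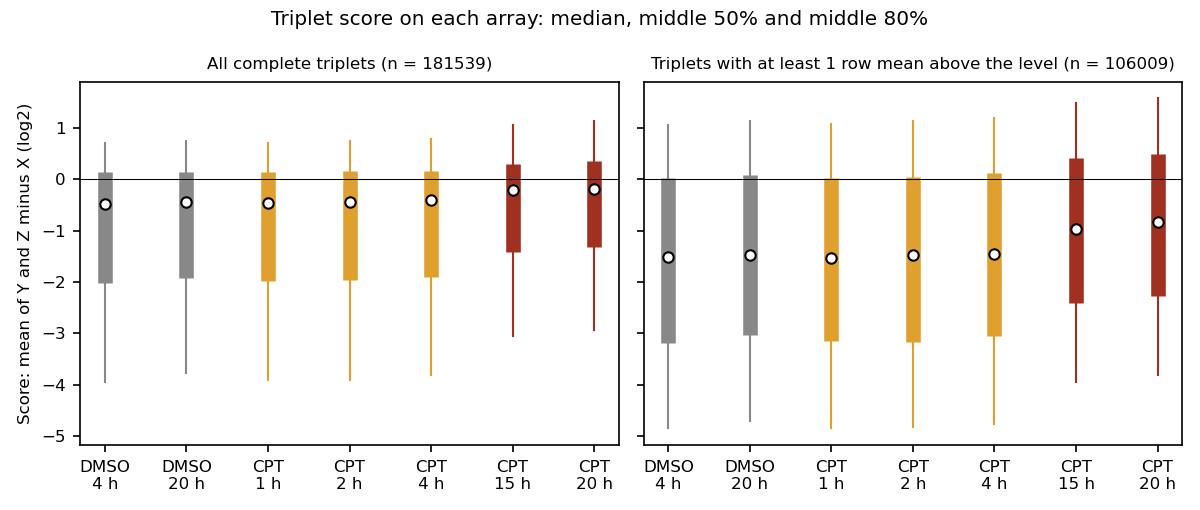
Triplet score on each array (log2; vertical axis) for all 181539 complete triplets (left) and the 106009 with at least 1 row mean above 2.95 (right). White points are medians, thick bars the middle 50% and thin lines the middle 80% of triplets, with DMSO in grey, CPT early in yellow and CPT late in red; both late arrays sit above the other arrays.

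In CPT late against DMSO, the score was higher in 15894 triplets (8.76% of those tested) of 5092 genes and lower in 927 (0.511%) of 829 genes (limma on all triplets, Benjamini-Hochberg adjusted p under 0.05). Called increases had a median of 2.58 and called decreases a median of -2.02 log2. The median difference over all triplets was 0.226. When each array was first centred on its own median score, 11239 triplets were higher and 1898 lower. The count rests on single arrays: 6651 triplets were called without the DMSO 4 h array and 6839 without the CPT 20 h array. At matched times and with no test, the score differed by over 1 log2 upward in 23.7% and downward in 6.86% of triplets between CPT and DMSO at 20 h. The same counts between the 2 DMSO arrays, 20 h against 4 h, were 10.0% and 7.57%, which is the size of differences found without CPT.

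The share of called triplets varied with the brightness of X. It was 0.702% higher calls among triplets with a mean X value between 1 and 2, 11.2% between 3 and 4, and 21.9% between 6 and 7, then lower again, at 16.7% between 8 and 9, 12.8% between 9 and 10 and 10.6% from 10 on. The lists below are therefore given with their mean X level. That mean includes the late arrays. Triplets of a list can lie in several ranges, so the share in the range of their mean is a rough guide. All triplets with a symbol had a mean X level of 3.42 and 8.97% higher calls, below the 11.2% between 3 and 4.

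Most of the higher scores came from the X row alone. Of the 15894 triplets, 13208 (83.1%) had an X row lower by over 1 log2 with no rise of over 1 in the mean of Y and Z, 1165 (7.33%) had both, 1168 (7.35%) had a mean of Y and Z higher by over 1 with X not lower by over 1, and 353 had neither. The mean can rise through 1 row: Y and Z were each higher by over 1 in 544 of the 1168 and in 303 of the 1165. These classes describe the same contrast that called the triplets and carry no test. Leaving out each array in turn kept the share with X alone between 77.9% and 84.6%. Among the 986 higher triplets whose 3 rows were all above 2.95, 421 had the mean of Y and Z alone, 288 had X alone and 244 had both. Those row means include the late arrays, so a dim Y or Z row can pass the level through its late rise. The filter thus favours triplets with higher Y and Z, and the different split is not a separate result. Lower scores were the reverse, with X higher by over 1 log2 and Y and Z near their DMSO level in 780 of the 927.

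**Figure D2:**
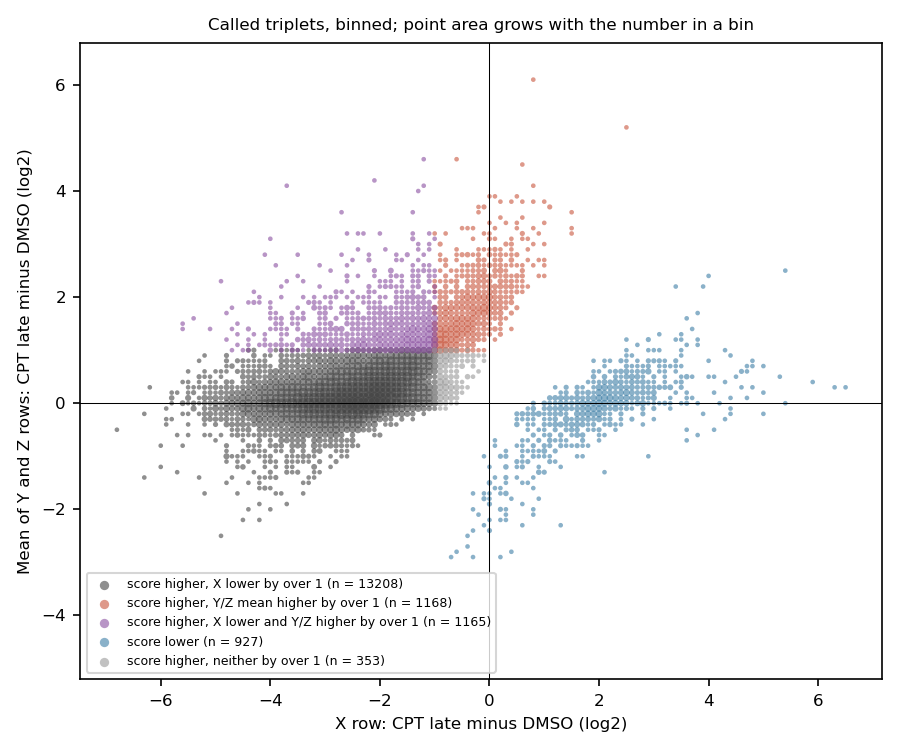
Late difference of the X row (horizontal axis, CPT late minus DMSO, log2) against that of the mean of Y and Z (vertical axis, log2) for the 16821 called triplets, binned, with a larger point for more triplets in a bin. The dense grey cloud left of 0 holds the 13208 triplets with X alone lower, orange and purple points those with a higher mean of Y and Z, and blue points the 927 with a lower score.

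Row by row, 4853 X rows rose and 15357 fell in CPT late against DMSO, while 7140 Y rows rose and 925 fell, and 5606 Z rows rose and 556 fell (limma on all rows of the table, adjusted p under 0.05). Of all rows of the array, 2.78% rose and 6.23% fell. Among X rows the shares were 2.67% and 8.46%, close to those of the table. Among Y rows 3.93% rose and 0.51% fell, and among Z rows 3.09% rose and 0.306% fell. Without the DMSO 4 h array the calls dropped to 8591 X rows, 1989 Y rows and 1352 Z rows, and without the CPT 20 h array to 11005, 3425 and 2321, with the same direction in the majority of each letter. A row near the dim end of the table cannot fall by much, which limits how many Y and Z rows could be called lower.

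The courses of these classes over the arrays differed. In the 13208 triplets with X alone lower, the median X value was 5.93 and 5.55 in DMSO at 4 and 20 h, 5.63, 5.67 and 5.44 in CPT at 1, 2 and 4 h, and 2.88 and 2.66 in CPT at 15 and 20 h, and the medians of Y and Z stayed between 1.64 and 1.86 on all 7 arrays. X was thus far nearer its DMSO level through 4 h than in CPT late, though at 4 h its median lay below both DMSO arrays. In the 1168 triplets with the mean of Y and Z alone higher, the median Y value was 2.57 and 2.56 in DMSO, 3.29, 3.63 and 4.00 in CPT at 1, 2 and 4 h, and 4.82 and 5.26 in CPT at 15 and 20 h. Their median Z value was 2.69 and 2.80 in DMSO, 3.32, 3.55 and 3.75 in CPT early and 4.68 and 4.95 in CPT late. The medians of Y and Z in this class were above both DMSO arrays from 1 h on and higher at each later time, while the median X value lay between 4.46 and 4.93 on all arrays. In the 1165 triplets with both, Y climbed in the same stepwise way, with medians of 2.56, 2.90, 3.26, 3.87 and 4.41 in CPT at 1, 2, 4, 15 and 20 h against 2.19 and 2.17 in DMSO, and X was 3.79 and 3.54 in CPT late against 6.07 and 5.78 in DMSO. In the 927 triplets with a lower score, the median X value was 3.12 and 3.56 in DMSO, 3.97, 4.01 and 4.36 in CPT early and 5.71 and 5.96 in CPT late. The classes were cut on differences between the late and DMSO arrays, among calls of a fit whose spread came from all 7 arrays, so the early values are a description, and differences of CPT early and CPT late from DMSO share the DMSO arrays.

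**Figure D3:**
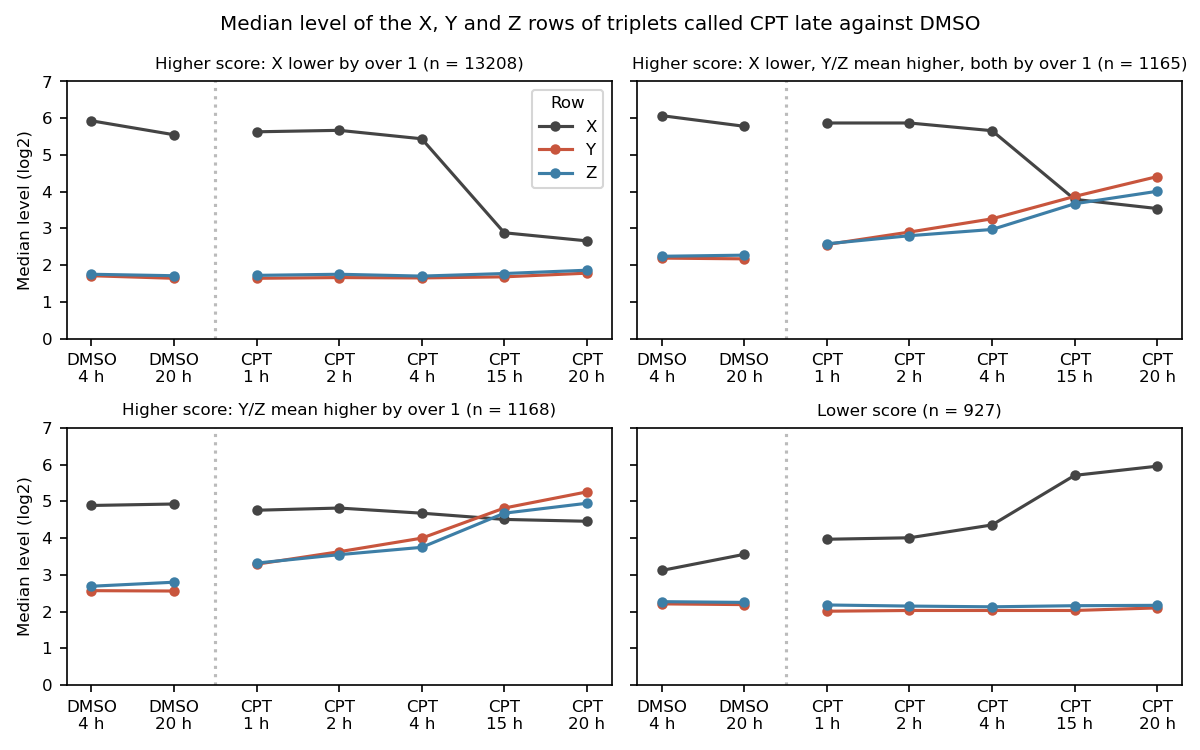
Median level (log2) of the X, Y and Z rows on each array, in DMSO at 4 and 20 h and in CPT at 1, 2, 4, 15 and 20 h, for the 3 main classes of higher score and for lower scores; each point is a median over the number of triplets in the panel title. In the 2 classes with lower X its median drops in the 15 and 20 h arrays, while the medians of Y and Z climb from 1 h on in the panels where they are higher.

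The triplets with the highest rise in score among genes with a symbol, at most 1 per gene, mostly combined both movements. In CCDC90B, which encodes a mitochondrial coiled-coil protein, the X row of triplet 2 was at 3.05 and 2.42 in CPT late (15 and 20 h), at 6.35, 6.38 and 6.82 in CPT early (1, 2 and 4 h), and at 6.24 and 6.57 in DMSO (4 and 20 h). Its Y row was at 6.82 and 7.68 in CPT late, 2.47, 4.10 and 6.14 in CPT early, and 3.99 and 2.07 in DMSO, and its Z row at 5.05 and 6.94 in CPT late, 3.06, 5.36 and 5.40 in CPT early, and 1.98 and 2.01 in DMSO. The late X values lay below those of all other arrays, and the late Y and Z values above both DMSO arrays. The score rose by 7.78 ± 0.77 log2 (SE; limma, adjusted p = 7.75e-05).

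The other 9 gained 6.45 to 7.15 log2, with adjusted p from 8.08e-06 in RPF1, a ribosome production factor, to 0.00018 in LSM8, a subunit of the ring that binds U6 small nuclear RNA. They include UBE2B, a ubiquitin-conjugating enzyme of post-replication DNA repair, RBIS, a ribosome biogenesis factor, SMG9, of nonsense-mediated decay, and BTBD10. ANKHD1, an ankyrin repeat and KH domain protein, and the readthrough gene ANKHD1-EIF4EBP3 share sequence, and triplet 24 of both lost X in the same arrays, so they are not separate observations. The X row fell in all 10 (adjusted p 0.000115 or less), and at least 1 of Y and Z rose past the test in CCDC90B, RPF1, ANKHD1, UBE2B, RBIS, BTBD10 and RBM5. SMG9 had no such rise: its X row was at 1.52 and 1.66 in CPT late, 7.14, 6.97 and 4.77 in CPT early, and 7.95 and 7.54 in DMSO, while Y stayed between 1.33 and 1.57 on all arrays. Several of these genes overlap another annotated gene (GNG5 with RPF1, CDKL3 with UBE2B, E2F5 with RBIS), and the strand that the probes read is not given in the sources used here.

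RBM5, an RNA-binding regulator of alternative splicing and apoptosis, had Y and Z values above both DMSO arrays from 1 h on, though none of its early differences passed the test. The Y row of its triplet 3 was at 3.38 and 3.56 in CPT late, 4.32, 5.09 and 5.55 in CPT early, and 2.36 and 2.30 in DMSO. Its Z row was at 7.57 and 8.11 in CPT late, 6.85, 7.28 and 7.10 in CPT early, and 5.27 and 5.59 in DMSO, and its X row at 3.89 and 3.69 in CPT late, 8.38, 6.54 and 7.14 in CPT early, and 8.30 and 8.64 in DMSO. Y was highest at 4 h and Z stayed high, without overlap between CPT and DMSO in either row. The score rose by 6.45 ± 0.61 in CPT late (adjusted p = 6.81e-05), and its difference in CPT early was 3.26 ± 0.56 (adjusted p = 0.113).

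**Figure D4:**
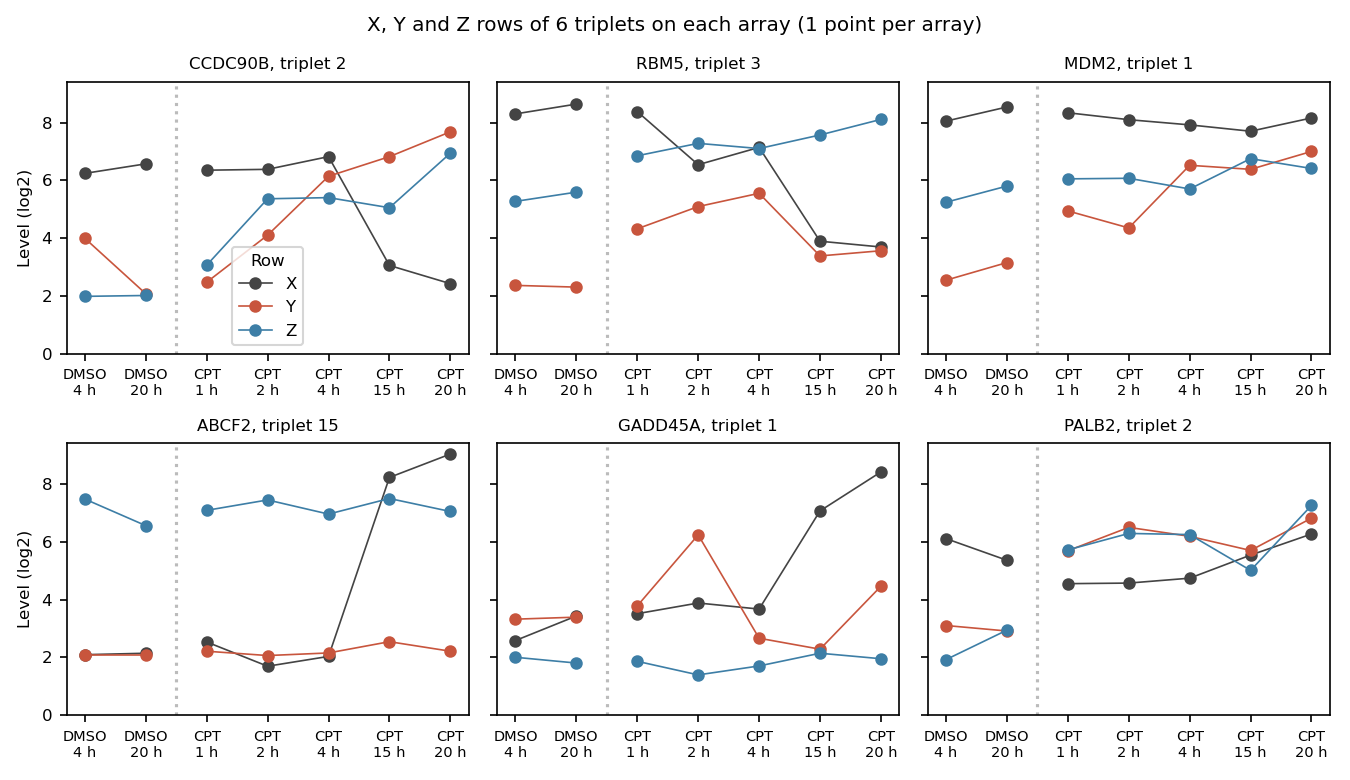
Level (log2) of the X, Y and Z rows of 6 triplets on each of the 7 arrays, 1 point per array, in DMSO at 4 and 20 h and CPT at 1 to 20 h. CCDC90B and RBM5 show X falling late, MDM2 triplet 1 and PALB2 show Y and Z higher with X near its DMSO level at 20 h, and ABCF2 and GADD45A show X rising late.

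Among the 10 named decreases of the score, X rose past the test in each. Naming asked for a row mean above 2.95 over all arrays, late ones included, which favours triplets with a late rise in X. ABCF2, an ATP-binding cassette protein, had the lowest difference, -6.23 ± 0.53 (adjusted p = 5.23e-05), with the X row of triplet 15 at 8.23 and 9.04 in CPT late, 2.53, 1.69 and 2.03 in CPT early, and 2.09 and 2.14 in DMSO. GADD45A, a growth arrest and DNA damage gene and p53 target, had X at 7.07 and 8.42 in CPT late, 3.51, 3.88 and 3.67 in CPT early, and 2.58 and 3.43 in DMSO, and a score difference of -4.67 ± 0.60 (adjusted p = 0.000282). The late X values of both stood above all other arrays. The X rows of GADD45B, the paralog of GADD45A, and of SGK1, a stress-responsive kinase, also rose in CPT late. GADD45B had X at 7.27 and 7.95 in CPT late, 4.06, 4.07 and 6.56 in CPT early, and 2.26 and 2.12 in DMSO (score difference -5.44 ± 0.68, adjusted p = 0.00024). SGK1 had X at 7.27 and 8.35 in CPT late, 3.93, 5.09 and 6.46 in CPT early, and 2.55 and 3.17 in DMSO (-4.79 ± 0.77, adjusted p = 0.00115). In both, the early X values lay between DMSO and CPT late, with early X differences that did not pass the test (adjusted p = 0.314 and 0.456). ATF3, a stress-induced transcription factor, SAT1, which acetylates spermidine and spermine, SULF2, a heparan sulfate endosulfatase, and RCOR2, NACAD and CCDC110 made up the rest, at -6.03 to -4.55.

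Called triplets were spread unevenly within genes. Of 12520 gene numbers with at least 5 triplets, 4564 had a higher call, 1792 of them exactly 1, and 418 had more than 50% of their triplets higher. A lower call was present in 671, both kinds in 160 and none in 7445. A triplet without a call is not shown to be unchanged. The genes with the most higher calls had many triplets, and X lay behind the calls in nearly all of their triplets. CKAP5, a microtubule polymerase, had 40 of 43 triplets higher and X differences between -5.16 and -0.71. TPR, of the nuclear pore basket, had 43 of 50 higher and a median X difference of -3.35. DST, a cytoskeletal linker, had 51 of 93, USP34, a deubiquitinase, 30 of 77, and MDN1, a ribosome maturation ATPase, 29 of 101. The median differences of Y and Z in these 5 genes lay between -0.105 and 0.0653, at rows that were dim already. In triplets with X alone lower, the other triplets of the same gene number had a median X difference of -1.03, against -0.0127 for triplets with the mean of Y and Z alone higher.

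MDM2, the ubiquitin ligase that p53 induces and that degrades p53, held both kinds of change in 1 gene. All 10 of its triplets had a positive late difference, and 8 passed the test. Triplet 1 had its Y row at 6.38 and 7.0 in CPT late, 4.94, 4.35 and 6.52 in CPT early, and 2.54 and 3.15 in DMSO, with X between 7.70 and 8.54 on all arrays. Its score rose by 2.82 ± 0.42 (adjusted p = 0.000688). Triplet 2 had its X row at 2.94 and 1.86 in CPT late, 6.73, 6.92 and 6.39 in CPT early, and 6.58 and 6.54 in DMSO, with Y and Z at 2.49 or below, and its score rose by 4.51 ± 0.62 (adjusted p = 0.000406). In triplet 3 the Z row differed by 4.45, and in triplets 5 and 6 X was lower by 2.64 and 2.70 with Y and Z higher by 1.36 to 1.61. MDM2 overlaps CPM in the annotation.

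Gene lists were read against the 8.97% of all triplets with a symbol that were higher and the 0.506% that were lower, at a mean X level of 3.42. Of the mitosis genes, 246 of 488 triplets (50.4%) in 27 of 30 genes were higher and 0 lower, with a median X difference of -1.67 and a mean X level of 4.5. Among all triplets with a mean X value between 4 and 5, 17.9% were higher. NDC80, of the kinetochore, had the X row of triplet 16 at 1.44 and 1.69 in CPT late and 7.23 and 7.2 in DMSO, and that of triplet 15 at 1.77 and 1.53 in CPT late and 7.77 and 7.19 in DMSO. Their scores rose by 6.1 and 5.94 (adjusted p = 7.75e-05 each). Of the higher mitosis triplets, 4.88% had a mean of Y and Z higher by over 1, against 14.7% of all higher triplets with a symbol.

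The 3 lists of splicing genes had shares above the 8.97% of all triplets with a symbol, which were dimmer in X. SR proteins and SR kinases had 51 of 196 triplets (26%) higher and 1 lower, hnRNP and other regulators 120 of 482 (24.9%) and 3, and the core spliceosome with the exon junction complex 115 of 706 (16.3%) and 0. Their mean X levels were 5.3, 5.85 and 5.6, and 21.6% of all triplets with a mean X value between 5 and 6 were higher. X alone lay behind 43, 100 and 91 of these calls. SRSF6, an SR protein, was an exception in which Y led: the Y row of triplet 5 was at 7.40 and 8.46 in CPT late, 6.71, 6.06 and 7.11 in CPT early, and 4.13 and 4.75 in DMSO. X of that triplet was at 4.53 and 4.40 in CPT late and 5.80 and 5.71 in DMSO. The score rose by 3.95 ± 0.43 (adjusted p = 0.000135). RBM25, a regulator of splice site choice, had X of triplet 7 at 5.04 and 3.97 in CPT late, 8.99, 9.0 and 8.47 in CPT early, and 9.51 and 8.91 in DMSO, and a rise in score of 5.39 ± 0.47 (adjusted p = 5.23e-05). The score of SRPK2, a kinase of SR proteins, rose by 4.30 through a fall of X. RBM8A, a core member of the exon junction complex, had a difference of 1.13 ± 0.35 in its brightest triplet (adjusted p = 0.053).

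DNA repair genes and topoisomerases had 177 of 937 triplets (18.9%) higher and 1 lower, and RNA polymerase II and elongation genes 49 of 322 (15.2%) higher and 1 lower. Their mean X levels were 4.12 and 5.1. Of all triplets, 17.9% with a mean X value between 4 and 5 and 21.6% between 5 and 6 were higher. The triplets of each list were not matched to these in brightness. The score of MSH6, of mismatch repair, rose by 5.26 ± 0.55 at triplet 9 (adjusted p = 0.000101). Its X row was at 2.04 and 1.96 in CPT late against 7.53 and 6.94 in DMSO. The score of POLR2B, the second largest polymerase subunit, rose by 5.15 at triplet 24 (adjusted p = 0.000401). That of CDK7, the kinase of the polymerase tail, rose by 4.68 at triplet 9 (adjusted p = 0.000204), and that of TOP2A by 5.42 at triplet 3. In POLR2B, CDK7 and TOP2A the X row differed from DMSO by -4.29, -4.40 and -4.74, and no Y or Z row passed the test. The brightest triplet of TOP1, the target of CPT, had a difference of 0.67 ± 0.45 (adjusted p = 0.446), with X at 10.67 and 10.07 in CPT late and 11 and 10.89 in DMSO. The brightest of the 16 triplets of TDP1, which removes trapped topoisomerase I, was triplet 7, with -0.39 ± 0.46 (adjusted p = 0.708).

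p53 targets had 27 of 176 triplets (15.3%) higher and 8 (4.55%) lower, at a mean X level of 3.74. Of all triplets with a mean X value between 3 and 4, 11.2% were higher and 0.703% lower. The mean of Y and Z was higher by over 1 in 44.4% of the higher p53 target triplets, against 14.7% of all higher triplets with a symbol, and no test of that difference was made. Apoptosis genes had 10 of 136 triplets (7.35%) higher and 1 lower at a mean X level of 3.37. Of all triplets with a symbol, at a mean X level of 3.42, 8.97% were higher. The higher apoptosis triplets included DIABLO, which releases caspases from their inhibitors (triplet 2, 4.81 ± 0.59, adjusted p = 0.000228), and CFLAR, a caspase 8 regulator (triplet 9, 3.16 ± 0.62, adjusted p = 0.00437). The brightest of the 10 triplets of CASP2, an initiator caspase, was triplet 8, with 0.49 ± 0.48 (adjusted p = 0.634). Its Y row was at 2.23 or below on all arrays. Its Z row was at 7.54 and 7.92 in CPT late and 6.34 and 6.85 in DMSO (limma on rows, adjusted p = 0.0511). Ribosomal protein genes, the brightest list with a mean X level of 9.57, had 3 of 146 triplets (2.05%) higher and 2 lower, against 12.8% higher among all triplets with a mean X value between 9 and 10. In all 3 the mean of Y and Z was higher by over 1 and X was not lower by over 1. RPL38 triplet 1 had Y at 9.64 and 9.96 in CPT late, 7.99, 7.88 and 8.11 in CPT early, and 7.69 and 7.53 in DMSO, and a rise in score of 1.89 ± 0.30 (adjusted p = 0.00111). The score of RPL7A triplet 7 rose by 1.89 ± 0.45 (adjusted p = 0.0142) and lost its call without either DMSO array or the CPT 20 h array.

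The list shares moved with single arrays as the whole count did. Without the DMSO 4 h array 3.56% of all triplets were higher, and the shares were 29.7% for mitosis, 8.67% for SR proteins and kinases, 12.2% for hnRNP and other regulators, 6.52% for the core spliceosome, 7.15% for DNA repair, 4.97% for the polymerase list, 7.95% for p53 targets and 3.68% for apoptosis. Without the CPT 20 h array 3.63% of all triplets were higher, and the same lists had 31.4%, 9.69%, 10.6%, 7.08%, 7.9%, 5.59%, 6.82% and 3.68%. Ribosomal protein genes had between 0.685% and 2.05% with each array left out. p53 targets also dropped to 9.66% without the DMSO 20 h array and to 10.2% without the CPT 15 h array.

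In CPT early against DMSO, 9 triplets had a higher score (0.00496%) and 4 a lower one (0.0022%) by the same test, and 11145 had an unadjusted p under 0.05. PALB2, the partner that brings BRCA2 to DNA breaks, had the lowest adjusted p among those with a symbol. The Y row of its triplet 2 was at 5.69, 6.5 and 6.19 in CPT early and at 3.10 and 2.91 in DMSO, and its Z row at 5.72, 6.29 and 6.25 in CPT early and at 1.92 and 2.94 in DMSO. X was at 4.55, 4.57 and 4.74 in CPT early and at 6.11 and 5.36 in DMSO. All 3 rows separated the groups, with Y and Z high already at 1 h. The score rose by 4.50 ± 0.46 (adjusted p = 0.0044) and was 3.31 ± 0.50 above DMSO in CPT late.

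TAP1, a peptide transporter of antigen presentation, followed through its Y row, at 6.86, 7.48 and 7.65 in CPT early and 1.94 and 3.25 in DMSO (score 3.71 ± 0.47, adjusted p = 0.0351). HDAC1, a histone deacetylase, had its Z row at 6.25, 6.76 and 7.65 in CPT early and 3.56 and 2.34 in DMSO (score 2.75 ± 0.37, adjusted p = 0.0375). EEF1G, a translation elongation factor subunit, had its Z row at 7.02, 7.43 and 7.01 in CPT early and 4.42 and 3.11 in DMSO (score 2.82 ± 0.37, adjusted p = 0.0351). In these genes X was nearly level or lower and the change lay in Y or Z. The score of SNHG12, a host gene of small nucleolar RNAs, rose by 3.60 ± 0.47 (adjusted p = 0.0351). Its X row differed by -1.67, its Y row by 1.67 and its Z row by 2.19.

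The 4 early decreases were of 2 kinds. In SULF2 triplet 18 X rose, at 5.79, 7.13 and 6.47 in CPT early against 2.05 and 3.60 in DMSO (score -3.67 ± 0.51, adjusted p = 0.0375). In the others the bright Y or Z row was lower. ANXA1, annexin A1, had its Z row at 2.29, 2.53 and 2.52 in CPT early against 5.96 and 7.01 in DMSO, with X at 10.06 or above on all arrays (score -3.03 ± 0.38, adjusted p = 0.0351). EZR, ezrin of the membrane cytoskeleton, had its Z row at 1.83, 2.30 and 1.98 in CPT early against 5.95 and 4.92 in DMSO (score -2.92 ± 0.40, adjusted p = 0.0375). ANKRD36, an ankyrin repeat gene with near-identical copies that the probes may not separate, had its Y row at 3.27, 1.98 and 2.28 in CPT early against 7.15 and 6.81 in DMSO (score -3.18 ± 0.44, adjusted p = 0.0375). The early count was 13 in all and is fragile: it was 3 and 1 without the DMSO 4 h and 20 h arrays, 2 without the CPT 2 h, 15 h or 20 h array, and 35 without the CPT 4 h array, of which 30 were lower. No triplet named here for CPT early kept its call under each array left out.

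Single rows showed more early change than the score. In CPT early, 63 Y rows rose and 133 fell, 34 Z rows rose and 40 fell, and 4 X rows rose and 4 fell. Over the whole table the shares were 0.00958% and 0.0187%, against 0.0347% and 0.0733% for Y rows. The 2 directions of Y rows sat at different running numbers. Rows that rose had a median number of 2, and 43 of 63 belonged to triplets 1 to 3, which hold 28.9% of all triplets. Rows that fell had a median number of 11, and 70 of 133 belonged to number 11 or over, which holds 32.1% of all triplets. The 133 came from 85 gene numbers, so they are not separate observations. Numbers of 11 or over occur almost only in genes with at least 11 triplets. In such genes 8 Y rows rose and 1 fell among 6042 triplets with number 1. Among 58230 triplets with number 11 or over, 1 rose and 70 fell. The genes of risen and fallen Y rows differed in length as well. Among rows with a known gene length, 2 of 58 risen and 55 of 92 fallen rows lay among the longest 20% of genes. The share over all triplets with a length was 34.5%. The X rows of the same triplets had a median early difference of 0.03 where Y rose and -0.24 where Y fell.

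Averages over all triplets were far smaller. The mean early difference of Y was 0.107 at number 1, 0.0795 at number 2, 0.0681 at number 3 and -0.0166 at number 11 and over, and that of Z was 0.0518, 0.0709, 0.0442 and -0.0321. That of X was 0.0359 at number 1 and -0.00484 at number 11 and over. In the 6047 gene numbers with at least 11 triplets, the mean for Y was 0.104 at number 1 and -0.0166 at number 11 and over. For Y at number 1 the early arrays were at 2.501, 2.553 and 2.595, above 2.451 and 2.434 in DMSO. For Z at number 1 they were at 3.036, 3.033 and 3.054, against 2.926 and 3.053 in DMSO, and for X at 3.602, 3.559 and 3.596, against 3.515 and 3.585, so the DMSO arrays differed from each other by more than the early difference of Z and of X. These means have no test, since rows of 1 array are not replicates.

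**Figure D5:**
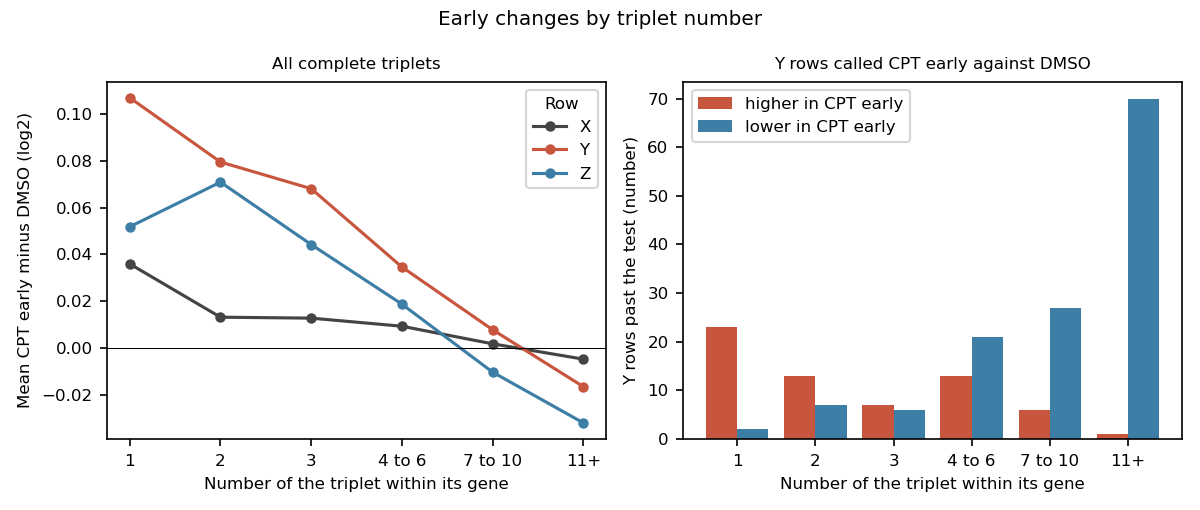
Left, mean difference between CPT early and DMSO (log2) of the X, Y and Z rows of all complete triplets by the running number of the triplet within its gene. Right, number of Y rows past the test in CPT early, with rises concentrated at numbers 1 to 3 (43 of 63) and falls at number 11 and over (70 of 133).

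All 63 risen and 133 fallen Y rows differed from DMSO in the same direction in CPT late, and 59 and 104 of them were called there, with the DMSO arrays shared by both comparisons. Examples chosen after their values were seen are EED, a subunit of the Polycomb repressive complex that methylates histone H3, with the Y row of triplet 1 at 5.17, 5.95 and 5.59 in CPT early and 1.65 and 1.69 in DMSO (adjusted p = 0.00633). WAC, an adaptor of histone ubiquitination, had the Y row of triplet 9 at 2.89, 3.31 and 2.21 in CPT early and 9.40 and 9.38 in DMSO (adjusted p = 6.98e-05). SETD5 had the Y row of triplet 22 at 3.26, 2.04 and 1.62 in CPT early and 7.50 and 8.52 in DMSO (adjusted p = 0.00115). Of all early calls of X, Y and Z rows, 12 were in ANKRD36 genes and 15 in NBPF genes, families of near-identical copies, by the symbols used here. Rows that only the platform annotation gives to these families are not in these counts, which therefore understate them. Without rows given to either family by symbol or platform annotation, 63 Y rows rose and 101 fell. The split by running number was not recounted without these families. The Y count was 45 without the DMSO 4 h array, 47 without the CPT 2 h array and 83 without the CPT 4 h array. Without the CPT 1 h array 77 rose and 69 fell, so the excess of falls rests on that array.

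In CPT late against CPT early, the score was higher in 17697 triplets (9.75%) and lower in 866 (0.477%), and the total of 18563 came down to 7401 without the CPT 20 h array. These groups differ in hours in culture as well as in hours with CPT, and the 2 cannot be told apart here. The named increases again had a lower X row in CPT late. WDR3 triplet 23 had X at 3.98 and 2.51 in CPT late and at 7.95, 7.62 and 7.40 in CPT early, with Z at 7.42 and 7.15 in CPT late and 3.09, 4.78 and 4.09 in CPT early (score 6.49 ± 0.57, adjusted p = 3.18e-05). MID1, a microtubule-associated ubiquitin ligase, had X of triplet 5 at 2.44 and 2.86 in CPT late and 8.84, 8.41 and 8.02 in CPT early (6.38 ± 0.47, adjusted p = 2.74e-05). RFWD3, a ubiquitin ligase of the replication stress response, NAV1 and DCUN1D5 had 6.25 to 6.43. The named decreases included the transcriptional repressors PRDM1 (triplet 4, -3.68 ± 0.51, adjusted p = 0.000306) and BCL6 (triplet 1, -3.59 ± 0.69, adjusted p = 0.00327), which act in lymphocytes among other cells. X of PRDM1 was at 5.92 and 7.25 in CPT late and 2.61, 2.80 and 2.55 in CPT early, and X of BCL6 at 5.22 and 7.52 in CPT late and 2.32, 2.65 and 3.44 in CPT early. ULBP2, a ligand of the natural killer receptor NKG2D, OSBPL7, ARRDC3 and C9orf43 had -3.66 to -3.56. The calls of BCL6, OSBPL7 and ULBP2 were lost without the CPT 20 h array. Of the 18563 triplets, 831 in 684 gene numbers differed from DMSO by over 1 log2 in opposite directions in CPT late and CPT early. A call in this contrast favours opposite directions, and 10924 of the 18563 had opposite signs. The share over all triplets was not counted, so the 831 have no background. One of them, chosen after its values were seen, is triplet 10 of MET, the receptor of hepatocyte growth factor. Its score difference was 2.32 in CPT late and -2.69 in CPT early. Its X row differed by -4.37 in CPT late and 0.33 in CPT early, and its mean of Y and Z by -2.05 and -2.36, so the rows moved at different times.

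The rows ending in C, D and E also form triplets, 227461 of them, and the mean of C and D minus E was computed in the same way for comparison. In CPT late against DMSO it was higher in 3279 (1.44%) and lower in 17769 (7.81%). In CPT early it was higher in 0 (0%) and lower in 1 (0.00044%) by limma, with 12174 at an unadjusted p under 0.05. The C and D rows fell in 7.13% and 6.94% of cases in CPT late and the E rows in 1.85%, so in both kinds of triplet the letter with brighter rows fell more often. Without the DMSO 4 h array 6646 were called in CPT late, and without the CPT 20 h array 8073. The difference between the 2 kinds of triplet was not tested.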

How the data were processed

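Total RNA of 7 HCT116 samples was amplified, labelled with biotin and hybridised, per the labels' protocols. The deposited table holds 1 log2 value for each probe set on each array, which the authors had already normalized. The submitters' processing notes name RMA, Partek 6.08 and R 2.11.1 but give no role or order. The log2 scale was read from the values, and the sources used here state neither a genome build nor a background correction. Symbols came from the platform annotation where the gene number held the same gene in the RefSeq gene table, from which gene lengths were used only for ranking (longest 20%).

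The score (mean of Y and Z minus X) of all 181539 triplets was fitted in limma 3.58.1 (R 4.3.3; lmFit and eBayes with the mean level of the triplet as trend), with 1 mean per group of DMSO, CPT early and CPT late and Benjamini-Hochberg adjustment over all triplets at 0.05. Single rows were fitted over all 2108940 rows. On simulated data the fit recovered 12%, 20% and 44% of changes of 2, 3 and 4 log2 in CPT late against DMSO and 0% of changes of 1, so a triplet without a call may still have changed. Only a small part of the simulated triplets was changed, far below the share called in CPT late, which makes the adjustment stricter. These recovery shares are thus not those of the late contrast in the data. The number of arrays limits the precision. Brightness depends on the probe, so single rows are not compared in level, and mean levels over many rows are descriptions.

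Members, gene lists, tests and the rule for named genes were chosen with earlier results of these data known. Named are up to 10 triplets per contrast and direction that passed 0.05, did not overlap between groups, had a row mean above 2.95 and a symbol, 1 per gene; the 5 genes with most higher calls; up to 2 per gene list; and the brightest triplet of TOP1, TDP1, CASP2, RBM8A and MDM2. The row mean behind the level of 2.95 includes the late arrays, so a triplet can be named through its late rise. In PRDM1 triplet 4 the X, Y and Z rows were at 2.80 or below in DMSO and CPT early. Alternatives were other filters, Y or Z alone, quantile normalization, centring, other variance settings, time as a block and each array left out. No probe sequence or coordinate was used here. Figures were drawn with matplotlib 3.10.9.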

Additional observations from a re-analysis of the deposited data

Results flagged for a closer look

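The score differed between CPT late and CPT early arrays in 18563 triplets by the test of that difference itself. This contrast subtracts no DMSO array, so hours with CPT cannot be told apart from hours in culture. In ANKRD36 triplet 39 the score was 3.16 ± 0.44 higher in CPT late than in CPT early (limma, adjusted p = 0.000308). It differed from DMSO by -0.02 in CPT late and by -3.18 in CPT early, and X was lower by 2.86 and Y lower by 3.81 in CPT late, so the score was close to its DMSO value while both rows lay below theirs. In EZR triplet 4 the score was 2.65 ± 0.40 higher in CPT late than in CPT early (adjusted p = 0.00059), at -0.27 against DMSO in CPT late and -2.92 in CPT early.

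Rows ending in N, which belong to none of the comparisons above, had a median difference of 0.433 log2 between CPT late and DMSO over 2835 rows, with mean levels of 4.78 and 4.70 in CPT late and 4.22 and 4.41 in DMSO. What these rows probe is not given in the sources used here. No group held the 4 arrays that a check for outlying arrays needs.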

How the results depend on the processing

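The late counts kept the excess of higher scores in each alternative run. They fell to 919 (late against DMSO) and 804 (late against early) among the 11267 triplets with all 3 rows above 2.95, where fewer triplets were tested. Blocking on time in the 4 h and 20 h arrays, which sets both CPT times against DMSO with 1 residual degree of freedom, gave 8 calls, and all 5 CPT arrays as 1 group against DMSO called 1; these mix early and late CPT. The labels carry no replicate numbers, and this time block is the pairing they allow. With each array left out, the score calls ran between 6651 and 16719 for late against DMSO, 1 and 35 for early against DMSO, and 7401 and 18190 for late against early.

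The early split of higher and lower scores was not stable. It turned to 37 higher and 42 lower (79) with all 3 rows above 2.95, to 19 and 27 (46) with Y minus X, and to 1 and 3 (4) with Z minus X. Without a variance trend limma called 0, with 11662 at an unadjusted p under 0.05. The cause was not tested. Early Z rows turned to 34 higher and 31 lower (65) without ANKRD36 and NBPF rows, an alternative chosen after seeing the data, and to 46 and 42 (88) among rows above 2.95. They also turned to 41 higher and 23 lower without the CPT 1 h array. The excess of falls among them was lost as well without either CPT late array.

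With each array left out, late row calls ran between 8591 and 18646 for X, 1989 and 7777 for Y, and 1352 and 6070 for Z, and early ones between 2 and 24, 45 and 181, and 19 and 83. Calls for C, D and E triplets, also left out array by array after seeing the data, ran between 6646 and 20187 late and 0 and 11 early. The late difference of CASP2 triplet 8 reversed to -0.127 with Y minus X, -0.241 with the time block and -0.136 with all CPT arrays as 1 group. All 36 named late differences with a call lost it under each of the last 2, and the other 4 of the 40 had none. Quantile normalization and robust variances ended the call of none of the 69 named differences.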
